A study of Mus musculus with 3 samples.

Results

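The genes described here are 10 members of the Notch pathway, chosen by symbol among the 32285 genes counted: the receptors Notch1, Notch2 and Notch4, the ligands Dll4, Jag1 and Jag2, the target genes Hey1 and Heyl, and the fringe enzymes Lfng and Mfng. All 10 were found. They were followed in single-cell RNA sequencing libraries of sorted cells from the small intestine, without the duodenum, of wild type C57Bl/6 female mice aged 9-10 weeks. There were 3 libraries, each from 4 animals pooled, and all belong to 1 group with no treatment. The epithelium was removed with EDTA and DTT, the tissue was digested with Liberase TL and DNase I at 37 °C for 60 min, and live CD45- CD31+ PDPN+ cells were sorted in an enriching mode. The libraries are therefore replicates of one condition, and the comparisons below are between cell classes inside each library. Cells other than lymphatic endothelium came through the same sort, so they may not represent their types in the whole tissue. The labels do not say whether animals were shared between libraries, so p-values measure only the spread among these libraries, which may be technical.

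Notch receptors are membrane proteins that are cut after they bind a Delta or Jagged ligand on a neighbouring cell. The freed intracellular piece joins the DNA-binding protein RBPJ in the nucleus and switches on genes of the HES and HEY families. Fringe enzymes extend a sugar on the receptor and thereby shift its response between Delta and Jagged ligands. In blood vessels Dll4 and Notch1 are known for restraining sprouting and for arterial identity. In the intestine Dll4 is known for the upkeep of lacteals, the lymphatic vessels of the villi.

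Cells were classed by fixed counts of unique molecular identifiers (UMIs). Lymphatic endothelial cells (LEC) had at least 1 Prox1 and at least 5 Lyve1 UMIs, and blood endothelial cells (BEC) at least 3 Flt1 and 0 Prox1 UMIs. Mural cells (smooth muscle and pericytes), fibroblasts and epithelium were taken by at least 3 markers and 10 marker UMIs of their list. Of 22534 barcodes kept, 18954 were LEC, 206 BEC, 190 mural cells, 354 fibroblasts and 608 epithelium. Library 1 held only 38 BEC and 22 mural cells. Every class held 4 of 5 lymphatic check markers, with Mmrn1 at 0 UMIs, and all 8 blood endothelial check markers. Detection therefore did not separate the classes, and levels are given as CPM (a gene's UMIs as a share of all UMIs of the class in that library, scaled to the usual CPM unit). Lymphatic markers summed to 13976, 13765 and 12609 CPM in LEC of libraries 1, 2 and 3, against 226, 213 and 294 CPM in BEC. Blood endothelial markers summed to 10367, 7194 and 4689 CPM in BEC, against 3149, 2778 and 2947 CPM in LEC. RNA of LEC was also found in the other classes, where the lymphatic genes Reln and Ccl21a stood at 0.381% to 3.59% of their LEC level. The BEC class carried RNA of stromal cells: all 10 mural markers were detected in it. They summed to 1947, 6681 and 9691 CPM in libraries 1, 2 and 3, against 257, 1053 and 267 CPM in LEC. Its 8 fibroblast markers summed to 415, 1631 and 3833 CPM, against 47.2, 208 and 87.7 CPM in LEC. LEC were therefore compared with a stricter BEC class too. Its gate also asked for 0 Lyve1 and 0 Ptprc UMIs, Cdh5 or Pecam1, and no pass of another class's markers, and it left 26, 50 and 30 cells with summed mural markers of 200.1, 120.2 and 118 CPM and fibroblast markers of 13.8, 36.6 and 31.4 CPM (7 of 8 detected, Lum at 0). Between libraries, 62 barcode strings were shared.

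The promoters of 7 of the 10 members were in the RefSeq table used (GRCm38.p6): all but Hey1, Heyl and Mfng. A window of 220 bases, from 250 to 31 bases before the RefSeq start site, was searched on both strands for TGGGAA (the core bound by RBPJ), AGGAAG (a core bound by ETS factors, a family common in endothelium), and CACGTG and CACGCG (cores bound by HES and HEY proteins). Among 32851 such windows TGGGAA was in 19.4%, AGGAAG in 26.1%, CACGTG in 5.01% and CACGCG in 6.5%. A match describes letters only and not a bound site. Of the genes in the table, the windows below show 1 that was higher in LEC (Lfng), 1 that was higher in BEC (Notch4) and 1 ligand found in both (Dll4). Capitals mark the motif matches.
Lfng, chr5:140607091-140607310, plus strand: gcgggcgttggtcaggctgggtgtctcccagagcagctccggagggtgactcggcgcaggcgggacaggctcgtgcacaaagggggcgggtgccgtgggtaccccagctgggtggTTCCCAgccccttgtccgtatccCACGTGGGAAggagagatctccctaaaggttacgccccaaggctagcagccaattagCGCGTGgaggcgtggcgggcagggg
Notch4, chr17:34564045-34564264, plus strand: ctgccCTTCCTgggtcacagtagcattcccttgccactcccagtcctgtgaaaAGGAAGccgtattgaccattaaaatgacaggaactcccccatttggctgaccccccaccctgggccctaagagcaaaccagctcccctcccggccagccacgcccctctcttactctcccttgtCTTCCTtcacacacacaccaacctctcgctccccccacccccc
Dll4, chr2:119325534-119325753, plus strand: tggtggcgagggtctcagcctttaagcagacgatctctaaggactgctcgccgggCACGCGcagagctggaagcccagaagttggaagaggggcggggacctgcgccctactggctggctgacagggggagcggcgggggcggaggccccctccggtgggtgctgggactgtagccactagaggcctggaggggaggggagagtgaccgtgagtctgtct
The Lfng window held TGGGAA 2 times, CACGTG 1 time and CACGCG 1 time, counting both strands, and 1 of the TGGGAA matches overlapped CACGTG. The Notch4 window held AGGAAG 3 times and none of the other motifs. In the Dll4 window CACGCG was the only match. CACGCG was also found 1 time in the Notch2 window and 2 times in the Jag1 window, and the Notch1 and Jag2 windows held none of the 4 motifs. By the GENCODE positions given below, the Notch1 and Jag2 windows lie inside the gene and the Jag1 window overlaps its start.

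LEC and BEC differed in which receptor, ligand and fringe genes they carried. LEC held more Notch2, Lfng and Notch1, and BEC held more Notch4, Jag2, Jag1 and Mfng. Dll4, Hey1 and Heyl did not pass the test. With edgeR's quasi-likelihood test and the library as a block, 7 of the 10 members passed an adjusted p of 0.05, 3 higher and 4 lower in LEC, where 18.7% of the 13783 genes tested passed (8.83% higher and 9.86% lower). The median log2 fold change of the members, LEC minus BEC, was 0.05, against 0.09 over all genes tested. With the stricter BEC gate 9 of 10 passed, 4 higher and 5 lower, where 18.4% of genes passed (10.4% higher and 8.02% lower), since Dll4 and Heyl were added. The stricter BEC held 0 UMIs of Heyl, so its call is against a count of 0 and its fold is given below as a bound only.

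**Figure D1:**
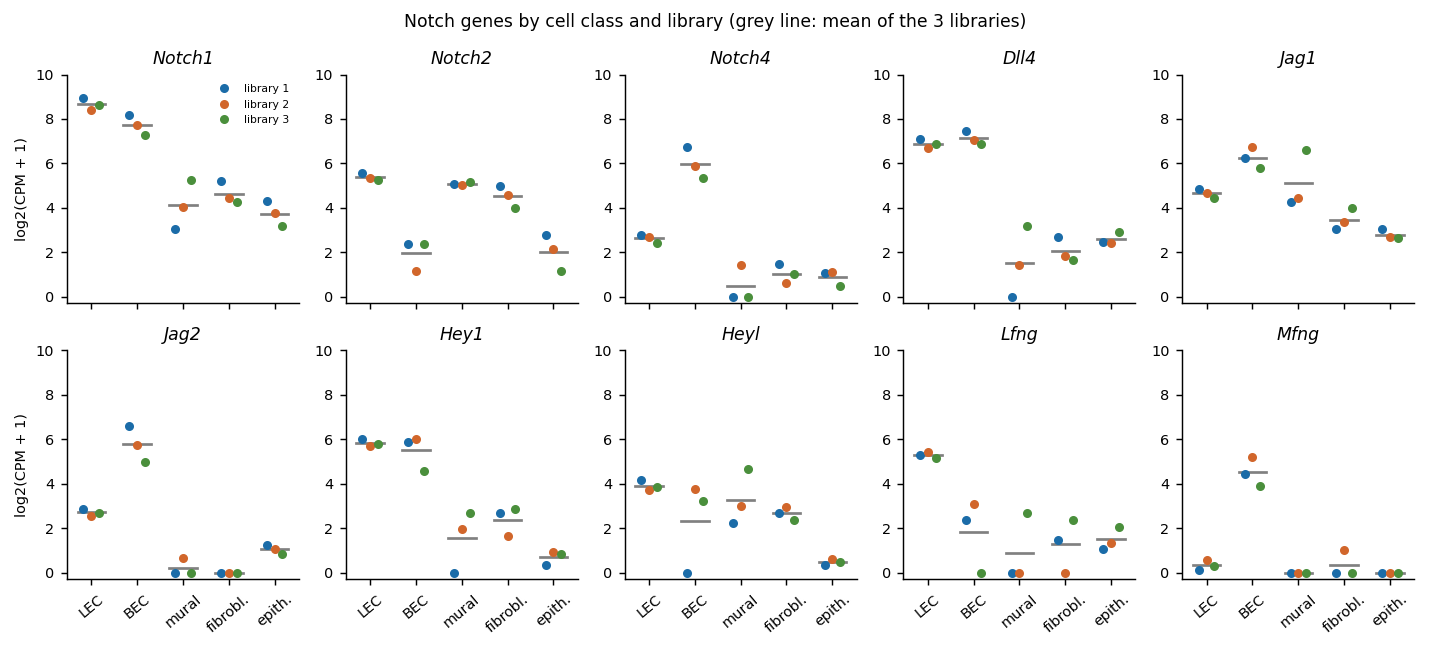
Levels of the 10 genes as log2(CPM + 1) in LEC, BEC, mural cells, fibroblasts (fibrobl.) and epithelium (epith.). Each point is 1 library and the grey line is the mean of the 3. Notch4, Jag2 and Mfng are highest in BEC in each library, and Lfng is highest in LEC in each library.

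**Figure D2:**
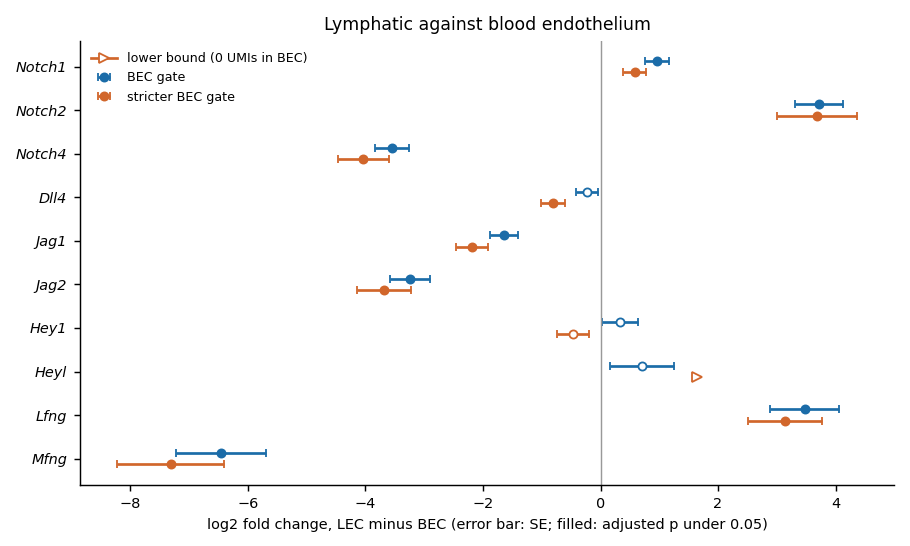
Log2 fold change of each gene, LEC minus BEC, with its standard error, for the BEC gate and the stricter BEC gate. Filled points passed an adjusted p of 0.05, and the open triangle of Heyl is a lower bound because the stricter BEC held 0 UMIs of it. Dll4 passed with the stricter gate only, and Hey1 changed sign without passing.

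Among the receptors, Notch1 (chromosome 2, 26457903 to 26516663, minus strand, GRCm38) is the main Notch receptor of endothelium. It stood at 498, 340.4 and 389.5 CPM in LEC of libraries 1, 2 and 3 and at 285, 214 and 153 CPM in BEC. Both endothelial classes were far above the rest, with LEC the highest in every library and no overlap between the classes. The log2 fold change, LEC minus BEC, was 0.96 ± 0.20 (SE, edgeR adjusted p = 0.00976, higher in 3 of 3 libraries). Without library 1 the difference was 1.06 and no longer passed (adjusted p = 0.0548), and with the stricter BEC gate it was 0.58 ± 0.19 (adjusted p = 0.0179). Mural cells held 7.34, 15.6 and 37.3 CPM, fibroblasts 35.8, 20.9 and 18.0 CPM and epithelium 18.6, 12.6 and 8.04 CPM. The order was LEC, BEC, fibroblasts, mural cells and epithelium, and the last 3 overlapped over the libraries.

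Notch2 (chromosome 3, 98013527 to 98150361, plus strand), a receptor known from smooth muscle and B cells among others, had another order. Its level was 45.7, 39.3 and 37.0 CPM in LEC, 33.0, 31.2 and 34.7 CPM in mural cells, 30.4, 23.0 and 14.8 CPM in fibroblasts, 5.94, 3.37 and 1.21 CPM in epithelium and 4.19, 1.24 and 4.22 CPM in BEC. BEC therefore stood at the bottom with epithelium, and these 2 overlapped. The BEC level rested on 6 UMIs and was 3.16% to 11.4% of the LEC level. LEC exceeded BEC by 3.72 ± 0.42 on the log2 scale (adjusted p = 0.000278), and the stricter BEC by 3.68 ± 0.69 (adjusted p = 1.30e-06), on 2 UMIs. Against mural cells the difference was 0.23 ± 0.24 and did not pass (adjusted p = 0.479), although the libraries of LEC lay above those of mural cells.

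Notch4 (chromosome 17, 34564268 to 34588503, plus strand) is a receptor known mostly from endothelium, and its promoter window with 3 AGGAAG matches is shown above. It stood at 105, 58.2 and 39.0 CPM in BEC and at 5.93, 5.36 and 4.40 CPM in LEC. The 2 classes did not overlap, and the log2 fold change was -3.54 ± 0.29 (adjusted p = 5.12e-05), which is 11.7-fold lower in LEC. The other classes held 0 to 1.79 CPM. With the stricter BEC gate the BEC values were 82.8, 78.4 and 102 CPM, closer together than in the wider class. In LEC 3.81% of cells had a Notch4 UMI and in BEC 35.4%, at median depths of 7266.5 and 7050.5 UMIs. After each cell was thinned to 3000 UMIs the shares were 1.49% and 22.4%, with an exact 95% interval of 16.7% to 29.0% for BEC, which covers counting error only. Thinning left out 460 LEC and 14 BEC. In fibroblasts, taken as cells that should lack the gene, the thinned share was 0 of 341 cells (exact 95% interval up to 1.08%). Their unthinned share was 0.847% at a median depth of 9346.5 UMIs.

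Dll4 (chromosome 2, 119325784 to 119335962, plus strand), the Delta ligand of endothelium, was found in both endothelial classes. LEC held 138, 102 and 115 CPM and BEC 176, 134 and 116 CPM. BEC was higher in each library, but the classes overlapped over libraries. The log2 fold change of -0.23 ± 0.18 did not pass (adjusted p = 0.446). It was -0.81 ± 0.21 with the stricter BEC gate (adjusted p = 0.00118), whose BEC held 172, 178 and 283 CPM, and -0.56 in thinned cells (adjusted p = 0.0451). In the wider BEC class library 3, with the highest summed mural and fibroblast markers, had the lowest Dll4 level, and in the stricter class library 3 had the highest. Mural cells, fibroblasts and epithelium held 0 to 8.0 CPM.

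Jag1 and Jag2 are the Jagged ligands. Jag1 (chromosome 2, 137081456 to 137116644, minus strand) was found in every class. It stood at 75.4, 105 and 54.8 CPM in BEC, 28.0, 24.8 and 21.02 CPM in LEC, 18.3, 20.8 and 96.0 CPM in mural cells, 7.15, 9.41 and 14.8 CPM in fibroblasts and 7.29, 5.37 and 5.22 CPM in epithelium. BEC lay above LEC without overlap, and LEC minus BEC was -1.65 ± 0.24 on the log2 scale (adjusted p = 0.00124), or -2.19 ± 0.28 with the stricter BEC gate. Mural cells overlapped both, because their library 3 stood far above libraries 1 and 2.

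Jag2 (chromosome 12, 112907819 to 112929776, minus strand) was more narrowly spread over the classes than Jag1. Its level was 96.3, 52.0 and 30.6 CPM in BEC and 6.36, 4.94 and 5.41 CPM in LEC. Epithelium held 1.35, 1.09 and 0.804 CPM, mural cells 1 UMI in all and fibroblasts 0 UMIs. LEC was lower than BEC by a log2 fold change of -3.25 ± 0.34 (adjusted p = 0.000195), a 9.48-fold difference. With the stricter BEC gate it was -3.68 ± 0.46 (adjusted p = 2.87e-14). Against fibroblasts, with the floor taken as 3 UMIs over the class (0.877 CPM), the pooled BEC level was at least 53.7-fold higher and the pooled LEC level at least 6.37-fold higher.

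Hey1 and Heyl are transcriptional repressors switched on by Notch. Hey1 (chromosome 3, 8663359 to 8667256, minus strand) stood at 63.3, 51.6 and 54.6 CPM in LEC and 58.6, 63.2 and 23.2 CPM in BEC. The classes overlapped and the log2 fold change of 0.33 ± 0.31 did not pass (adjusted p = 0.529). It was -0.47 ± 0.28 with the stricter BEC gate (adjusted p = 0.274) and -0.16 without library 3. Mural cells, fibroblasts and epithelium held 0 to 6.34 CPM. In epithelium Hey1 stood at 0.426%, 1.77% and 1.47% of its LEC level in libraries 1, 2 and 3. Reln and Ccl21a stood at 0.545% to 1.16% of theirs in this class.

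Heyl (chromosome 4, 123233556 to 123249875, plus strand) was found in several classes. LEC held 17.2, 12.3 and 13.3 CPM, mural cells 3.67, 6.93 and 24.0 CPM, BEC 0, 12.4 and 8.43 CPM, fibroblasts 5.36, 6.79 and 4.22 CPM and epithelium 0.270, 0.546 and 0.402 CPM. All neighbours in this order but the last overlapped. LEC minus BEC was 0.71 ± 0.54 on the log2 scale (adjusted p = 0.435). In the stricter BEC there were 0 UMIs of Heyl, so all 18 UMIs of the wider class lay in barcodes that the stricter gate left out. Against a floor of 3 UMIs over the stricter class (4.58 CPM) the pooled LEC level was at least 3.12-fold higher.

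The fringe enzymes divided between the endothelial classes, Lfng in LEC and Mfng in BEC. Lfng (chromosome 5, 140607320 to 140615545, plus strand), whose promoter window held TGGGAA and both HES and HEY cores, stood at 38.6, 41.8 and 34.9 CPM in LEC. In BEC it stood at 4.19, 7.43 and 0 CPM, or 7 UMIs in all, and in the other classes at 0 to 5.33 CPM. LEC lay above each other class without overlap, and the log2 fold change, LEC minus BEC, was 3.47 ± 0.58 (adjusted p = 0.00281), or 11.1-fold. With the stricter BEC gate, on 3 UMIs in BEC, it was 3.13 ± 0.63 (adjusted p = 9.18e-06). Mfng (chromosome 15, 78755882 to 78773475, minus strand) showed the opposite. It stood at 20.9, 35.9 and 13.7 CPM in BEC, while LEC held 0.0807, 0.496 and 0.241 CPM, or 40 UMIs among 18954 cells. The log2 fold change was -6.46 ± 0.76 (adjusted p = 0.000379), and with the stricter BEC gate -7.31 ± 0.91. Mural cells and epithelium held 0 UMIs of Mfng. Against the floor of 3 UMIs over the class, pooled BEC was at least 18.7-fold above mural cells (1.26 CPM) and at least 134.9-fold above epithelium (0.175 CPM).

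Outside the endothelium the 10 genes mostly stood lower. The LEC sums below are the same in each comparison, so the comparisons are not independent of each other. Against mural cells 5 of the 9 members tested passed, all higher in LEC (Notch1, Dll4, Jag2, Hey1 and Lfng), where 39.6% of the 13860 genes tested passed and 21.8% were higher. Notch2, Notch4, Jag1 and Heyl did not pass, and Mfng was too low to test. Jag2 rested on 1 mural UMI, and its difference of 3.56 ± 1.03 did not pass without library 2 (adjusted p = 0.100), in DESeq2 (0.0546), at 1000 genes and 10% mitochondrial UMIs (0.0564) or in thinned cells (0.135), and Notch4 passed with no block (2.03, adjusted p = 0.0371). Jag1 passed as lower in LEC without library 1 (-0.97, adjusted p = 0.00572) or without library 2 (-1.24, adjusted p = 0.00677) and had the other sign without library 3 (0.35, adjusted p = 0.492). It also passed as lower at 1000 genes and 10% mitochondrial UMIs (-1.20, adjusted p = 0.000746) and in thinned cells (-1.27, adjusted p = 0.00493). At 1000 genes and 10% mitochondrial UMIs library 1 kept 15 mural cells, under the 20 required. The Jag1 and Jag2 values of that setting therefore rest on libraries 2 and 3 only, so the Jag1 value is not separate from the one without library 1.

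Against fibroblasts 9 of 9 members tested were higher in LEC, where 43.9% of 14212 genes passed and 23.9% were higher. One of them, Jag2, had 0 UMIs in fibroblasts and is given only as the bound above. Dll4 differed by 5.29 ± 0.22, Lfng by 4.74 ± 0.54, Notch1 by 4.13 ± 0.16 and Notch2 by 0.92 ± 0.19 on the log2 scale. Heyl (1.30 ± 0.31) did not pass without library 3 (adjusted p = 0.0534) or in thinned cells (0.62, adjusted p = 0.353), and Notch4 (2.56 ± 0.62) did not pass without library 2 (adjusted p = 0.103). Against epithelium 9 of 9 members tested were again higher in LEC, where 72.4% of 14377 genes passed and 41.1% were higher. Hey1 differed by 6.09 ± 0.33 and Jag1 by 1.92 ± 0.15. In thinned cells Notch4 and Jag2 did not pass (adjusted p = 0.0672 and 0.109).

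BEC were also compared with the mural class, most of whose cells lay on the smooth muscle side described below. Of the 7 members tested, Notch1, Notch4, Dll4, Jag2 and Hey1 were higher in BEC and Notch2 was higher in mural cells, where 20.9% of the 7032 genes tested passed (12.0% higher and 8.90% lower in BEC). Jag2 differed by 6.41 ± 0.60, Dll4 by 5.42 ± 0.58, Notch4 by 5.34 ± 0.56 and Notch2 by -3.54 ± 0.50, BEC minus mural cells. The lower side of each rested on few cells. Jag2 was found in 1, Notch4 in 3 and Dll4 in 5 of 190 mural cells, and Notch2 in 6 of 206 BEC. Jag1 did not pass (0.94 ± 0.63, adjusted p = 0.324) and did with the stricter BEC gate (1.53 ± 0.55, adjusted p = 0.0490), where 8 of 8 members tested passed, 7 higher and 1 lower, beside 45.2% of genes (21.8% higher and 23.4% lower). Mfng was the member added there, against 0 mural UMIs. Library 2 held 128 of the 190 mural cells, and without it 1 of 5 members tested passed, beside 91 of the 5152 genes tested. Notch1 (adjusted p = 0.0971), Notch2 (0.180) and Notch4 (0.0504) were among those lost, and Jag2 and Hey1 were not tested there. Without library 3, Jag1 was higher in BEC by 2.07 (adjusted p = 4.57e-05).

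The mural class held a mixture, and the genes divided within it. By the larger sum of pericyte markers (Rgs5, Kcnj8, Abcc9, Cspg4) or of smooth muscle markers (Myh11, Cnn1, Actg2, Des), 33 cells fell on the pericyte side and 157 on the smooth muscle side, with 1, 19 and 13 against 21, 109 and 27 cells over the libraries. Heyl had 16 UMIs on the pericyte side, or 79.2 and 74.5 CPM in libraries 2 and 3, and 6 UMIs on the smooth muscle side, or 0, 1.85 and 10.2 CPM. Jag1 stood at 79.2 and 161 CPM in libraries 2 and 3 on the pericyte side and at 18.5, 16.7 and 78.1 CPM on the other. Notch1 stood at 96.8 and 62.1 CPM on the pericyte side and 3.71, 9.88 and 30.6 CPM on the other. Notch2 went the other way, with 0 and 24.8 CPM on the pericyte side and 33.4, 33.4 and 37.4 CPM on the smooth muscle side. Notch3, the receptor known from pericytes and arterial smooth muscle and not one of the 10 genes, had 177 UMIs (986 and 795 CPM) on the pericyte side and 34 (0, 12.4 and 47.5 CPM) on the other. Library 1 had 1 cell on the pericyte side, and no test was made. Library 3 of the mural class also held 8 of 8 blood endothelial markers at a summed 501 CPM, against 73.4 and 130.4 CPM in libraries 1 and 2.

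Within BEC, cells with a UMI of an artery marker (Gja4, Gja5, Sox17 or Sema3g) and none of a vein marker (Ackr1, Selp, Sele or Madcam1) numbered 66 under the stricter gate. Those with a vein marker only numbered 8, all from library 2. The artery side held Hey1 at 51.8, 209 and 77.7 CPM (47 UMIs) and Dll4 at 238, 339 and 272 CPM. The vein side held 0 UMIs of Hey1, 5 of Dll4 and 5 of Mfng, or 62.5 CPM of each of the last 2, against 24.9 CPM of Mfng pooled over the artery side. The 23 stricter BEC with neither kind of marker held 91.1 CPM of Mfng, 79.8 of Hey1 and 205 of Dll4, and the 9 with both held 47.95 CPM of Mfng and 0 UMIs of Hey1 and Dll4. These counts rest on few cells and 1 library on the vein side, and no test was possible. Vein markers were near 0 in BEC of library 3 (a summed 2.11 CPM, against 846 and 2226 CPM in libraries 1 and 2).

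Notch1 and Dll4 were found in the same LEC. In cells thinned to 3000 UMIs, Notch1 was seen in 68.9% of LEC and Dll4 in 28.7% (90.7% and 53.9% unthinned), against 4.44% and 1.95% of epithelium (20.4% and 9.70% unthinned, at a median depth of 24197.5 UMIs). Both were seen in 25.3%, 17.3% and 18.7% of LEC in libraries 1, 2 and 3. The product of the single shares was 24.3%, 16.97% and 18.5%, so receptor and ligand were detected together about as often as their shares alone give. Notch1 and Lfng were seen together in 8.52%, 7.51% and 6.85% of LEC, against products of 8.43%, 7.71% and 6.67%.

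Within LEC the levels were compared by detection of Itih5 and of Clca3a1, a chloride channel accessory gene known as a marker of some lymphatic endothelium. The 2 genes mark different cells in part: 7504 LEC held only Itih5, 3489 only Clca3a1, 1375 both and 6586 neither. Heyl was higher and Lfng lower in LEC with Itih5, and the reverse held for LEC with Clca3a1. Between LEC with only Itih5 and LEC with only Clca3a1, Heyl stood at 22.7, 16.8 and 18.4 CPM against 7.19, 6.85 and 5.06 CPM, ratios of 3.15, 2.46 and 3.63. Lfng stood at 32.5, 35.4 and 29.9 CPM against 51.0, 57.9 and 49.6 CPM, ratios of 0.637, 0.612 and 0.603. Neither gene overlapped between these sides, and LEC with both or neither lay in between.

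**Figure D3:**
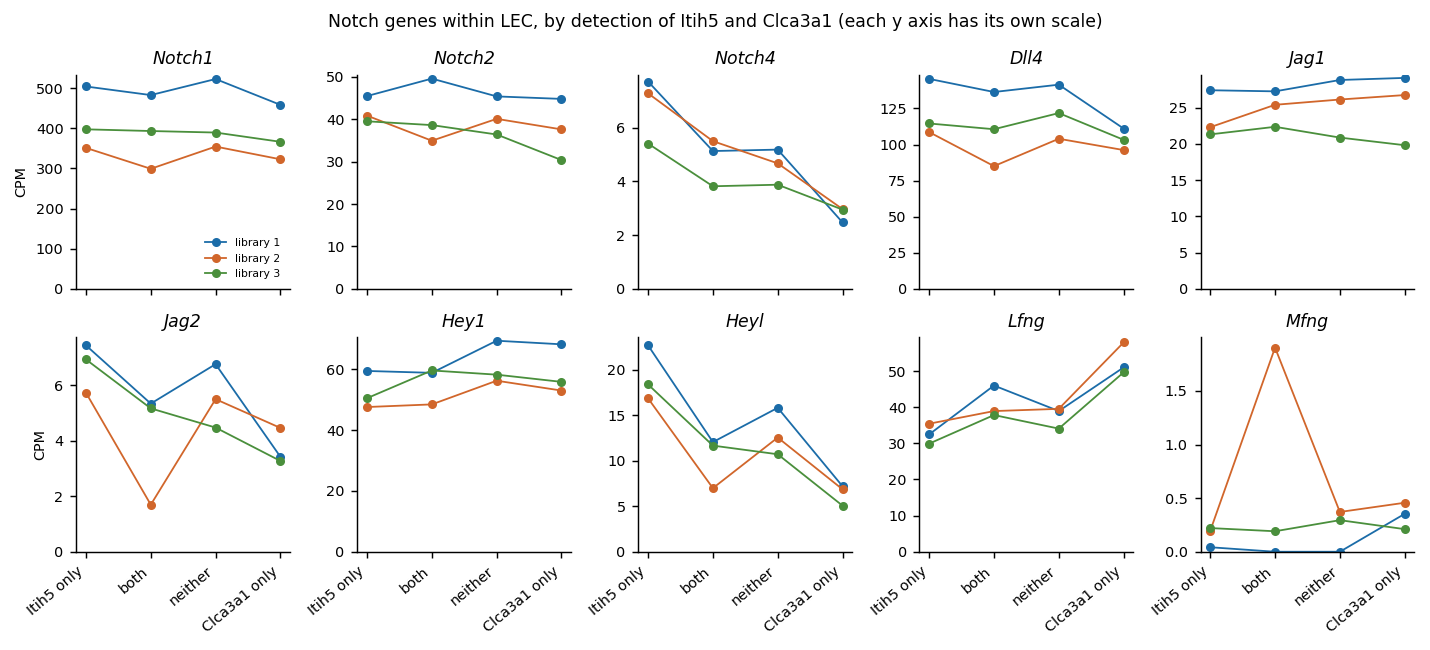
CPM of the 10 genes in LEC with only Itih5, with both genes, with neither and with only Clca3a1, 1 line per library, each panel with its own scale from 0. In each library Heyl, Notch4, Jag2 and Dll4 are lower and Lfng and Hey1 are higher at the Clca3a1 end than at the Itih5 end. Notch1 is slightly lower at the Clca3a1 end (ratios of the Itih5 end to the Clca3a1 end of 1.10, 1.09 and 1.08). Notch2 is lower there too (1.01, 1.09 and 1.30), and Jag1 (0.941, 0.834 and 1.08) and Mfng (0.119, 0.427 and 1.05) go both ways.

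By Itih5 detection 4 of the 9 members tested passed, 2 higher and 2 lower with Itih5, where 14.6% of the 13962 genes tested passed (8.29% higher and 6.34% lower). Heyl was higher with Itih5 (20.8, 14.5 and 17.3 CPM against 12.3, 10.3 and 8.91 CPM without it), and the difference was 0.70 ± 0.09 on the log2 scale (edgeR adjusted p = 0.000585). Notch4 was higher by 0.66 ± 0.13 (adjusted p = 0.00783). Lfng was lower (34.8, 36.3 and 31.2 CPM against 43.9, 46.8 and 39.0 CPM), by -0.39 ± 0.04 (adjusted p = 0.000346), and Hey1 was lower by -0.23 ± 0.04 (adjusted p = 0.00470). The libraries with and without Itih5 did not overlap for Heyl, Notch4 and Lfng and did for Hey1. The share of all genes that did not overlap was not counted. Hey1 was lower in 3 of 3 libraries and did not pass in thinned cells (-0.13, adjusted p = 0.167). Notch4 did not pass in DESeq2 (adjusted p = 0.104). Hey1 and Heyl changed in opposite directions.

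By Clca3a1 detection 5 of the 9 members tested passed, 1 higher and 4 lower with Clca3a1, where 14.8% of the 13723 genes tested passed (6.80% higher and 8.02% lower). Heyl was lower with Clca3a1 (9.00, 6.90 and 7.40 CPM against 20.3, 14.8 and 15.1 CPM without it), and the difference was -1.08 ± 0.07 on the log2 scale (edgeR adjusted p = 0.000273). Lfng was higher (49.1, 51.3 and 45.4 CPM against 34.7, 37.4 and 31.7 CPM), by 0.51 ± 0.04 (adjusted p = 0.000306). Notch4 (-0.71 ± 0.15, adjusted p = 0.0212), Jag2 (-0.67 ± 0.13, adjusted p = 0.0158) and Dll4 (-0.18 ± 0.04, adjusted p = 0.0202) were lower. Notch4, Jag2 and Dll4 did not pass without library 1 (adjusted p = 0.110, 0.0867 and 0.0624), and Notch4 and Jag2 did not pass without library 3 (0.0511 and 0.0530), in DESeq2 (0.143 and 0.138), at 2 UMIs or more of Clca3a1 (0.0553 and 0.113) or in thinned cells (0.118 and 0.572). Heyl, Lfng, Notch4 and Jag2 did not overlap between the sides, and Dll4 did. The share of all genes without overlap was not counted here either, so this describes the named genes only. Hes1, the best known HES target and not one of the 10 genes, was lower with Clca3a1 by -0.20 ± 0.04 (adjusted p = 0.0205).

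Both parts of a library share its animals and run, so the fits by Itih5 and by Clca3a1 carried the library as a block. With no block, 0 members passed in either by edgeR, beside 22 of all genes in each, and Heyl had an adjusted p of 0.203 and 0.0716. At an unadjusted p under 0.05 in these edgeR fits, 4 of 9 members passed in each. So did 1270 of the 13962 genes tested by Itih5 and 1352 of the 13723 by Clca3a1. DESeq2 with the block called 3 members in each, beside 1037 of all genes by Itih5 and 1119 by Clca3a1. LEC with Itih5 were deeper (a median of 8110 against 6696 UMIs) and held more RNA of mural, fibroblast and epithelial markers in each library. All 10 mural markers were detected on both sides, at a summed 337, 1777 and 395 CPM with Itih5 and 146, 398 and 128 CPM without. Blood endothelial markers were lower with Itih5 (3068, 2648 and 2930 against 3262, 2895 and 2964 CPM). Immune markers went both ways (8.27, 394 and 117 against 12.1, 337 and 175 CPM). Between LEC with only Itih5 and only Clca3a1, median depths were 7962.5 and 6986 UMIs. Mural markers summed to 330, 1461 and 430 against 141, 219 and 108 CPM. Fibroblast markers were also higher with only Itih5, and epithelial and immune markers went both ways. By Clca3a1 detection, mural markers went both ways and vein markers were higher with it (51.7, 130 and 58.3 against 47.2, 43.4 and 47.9 CPM). In the 18406 LEC left after those with RNA of other classes were taken out, an alternative added after the data were seen, Heyl differed by 0.77 ± 0.07 and Lfng by -0.34 ± 0.04 by Itih5, and by -1.05 ± 0.09 and 0.56 ± 0.04 by Clca3a1. In thinned cells, Heyl differed by 0.66 and -1.55 and Lfng by -0.22 and 0.70. Each of these values passed. In the LEC without RNA of other classes 5 of 9 members passed by each gene, where 23.7% of genes passed by Itih5 and 25.1% by Clca3a1, and Jag2 was among those higher with Itih5 (0.47 ± 0.12, adjusted p = 0.00937).

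The rest of the pathway was followed with a list of 44 other genes. Between LEC and BEC, 39 could be tested, and 6 were higher and 7 lower in LEC, where 18.7% of all genes tested passed (8.83% higher and 9.86% lower). Their median log2 fold change was -0.02 (-0.03 without Hes7, which had 0 UMIs in BEC), against 0.09 over all genes tested. Of the 9 protease genes 3 were higher and 0 lower in LEC: Aph1b (2.96 ± 0.26) and Psen2 (1.75 ± 0.25), parts of γ-secretase, which makes the final cut of the receptor, and Adam10 (1.31 ± 0.18), which makes the cut before it. Dtx1, a Deltex ubiquitin ligase that binds the receptor's intracellular part, showed the largest rise. It stood at 518, 411 and 463 CPM in LEC and at 0, 11.1 and 3.16 CPM in BEC, a log2 fold change of 6.28 ± 0.45 (adjusted p = 2.81e-05).

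Lower in LEC were Notch3 (-6.63 ± 0.75), Eogt (-3.90 ± 0.32), which adds a sugar to the receptor, Nrarp (-3.16 ± 0.26), a target gene that feeds back on the pathway, and Dtx4 (-2.41 ± 0.58), another Deltex gene. Nrarp stood at 67.0, 50.8 and 47.4 CPM in BEC and 6.42, 5.95 and 5.56 CPM in LEC. With the stricter BEC gate Aph1b (3.52 ± 0.46), Psen2 (1.54 ± 0.32), Adam10 (1.02 ± 0.21), Eogt (-4.68 ± 0.46) and Nrarp (-3.20 ± 0.48) passed again in the same direction. Notch3 and Dtx4 had 0 UMIs in the stricter BEC, whose floor of 3 UMIs is 4.58 CPM, so their higher level in BEC was seen in the wider class only, where Notch3 had 105 UMIs. Dtx1 also had 0 UMIs there, and the pooled LEC level was at least 101.8-fold above the floor. Hes1, named here although it is outside the rule for named genes, stood at 926, 683 and 775 CPM in LEC and 1076, 593 and 739 CPM in BEC and did not pass (0.03 ± 0.17, adjusted p = 0.930).

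**Figure D4:**
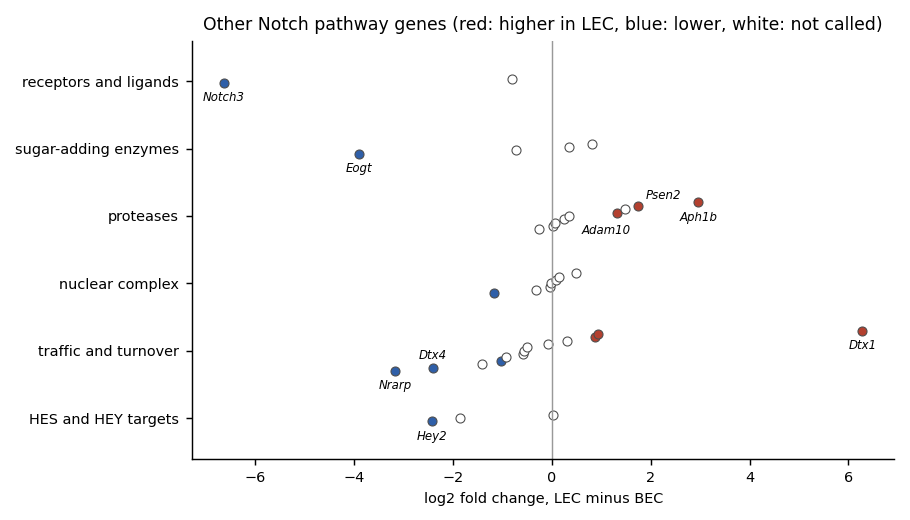
Log2 fold change, LEC minus BEC, of 38 other Notch pathway genes by role; Hes7, with 0 UMIs in BEC, is left out. Dtx1 lies far to the right and Notch3, Eogt and Nrarp to the left, while most genes lie near 0.

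In the other comparisons the same list gave 14 genes higher and 9 lower of 39 tested against mural cells, 13 and 11 of 40 against fibroblasts, and 21 and 6 of 39 against epithelium, where 39.6%, 43.9% and 72.4% of all genes tested passed. Medians were 0.30, -0.01 and 0.83, against 0.22, 0.12 and 0.28 over all genes tested. Dtx1, Aph1b, Adam10 and Psen2 were higher in LEC against mural cells and fibroblasts too. Against fibroblasts the largest falls were the atypical ligand Dner (-6.26 ± 0.67) and Dtx4 (-4.91 ± 0.18), another gene lower being Hes6 (-2.05 ± 0.33). Against mural cells Notch3 was lower by -7.14 ± 0.40. Against epithelium Hes6, a HES family gene, was lower by -3.40 ± 0.22. Between BEC and mural cells 28 were tested and 4 were higher in BEC (Eogt, Numb, Adam17 and Adam10), where 20.9% of all genes tested passed, with a median of 0.29 against 0.02 over all genes tested.

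Within LEC the list's median was -0.01 by Itih5 and 0.06 by Clca3a1, against 0.01 over all genes tested in each. By Itih5, 3 of 39 were higher and 6 lower, where 14.6% of all genes tested passed: among them Neurl1b (0.41 ± 0.08), a ubiquitin ligase for ligands, was higher, and Maml2 (-0.27 ± 0.04), a co-activator of RBPJ, was lower. By Clca3a1, 3 were higher and 4 lower, where 14.8% of all genes passed, with Dll1 (0.43 ± 0.08) and Aph1b (0.27 ± 0.04) higher and Neurl1b (-0.47 ± 0.09) lower.

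For each member the genes with the most similar pattern were ranked by Pearson's r of log2(CPM + 1) over the 15 sums of class and library, among 9105 genes that reached 20 CPM in a class. The sums share libraries and classes, so r is a description. Il2rg, Tal1 and Cyp26b1 were most like Notch1 and Ppp1r16b, Spns2 and Cyp26b1 most like Dll4. Kti12, Pcdh17 and Swap70 were most like Jag2, Prnd, Ssu2 and Lrrc3b most like Mfng, and Cyb5r3, 4833422C13Rik and Appl2 most like Lfng. Nrxn2, Khdrbs3 and Hsph1 were most like Notch2, Kif13a, Ramp3 and Kti12 most like Notch4, and Hif1a, Eif1 and Rock1 most like Jag1. Il2rg, Tek, which encodes an angiopoietin receptor, and Kank3 were most like Hey1, and Dtd1, Mr1 and Susd2 most like Heyl. The first gene of each list had r from 0.91 (Notch2) to 0.99 (Mfng). Among the members themselves, Notch4 and Jag2 (r = 0.97) and Notch1 and Hey1 (r = 0.96) had the most similar patterns and Notch2 and Mfng (r = -0.56) the least.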

How the data were processed

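Each library was deposited as a matrix of raw UMI counts, whole numbers for every gene in every barcode. The submitters' processing notes name bcl2fastq 2.2, Cell Ranger 6.1.2 and mm10 for the authors' processing. The annotation release and whether strand was used are not given in the sources used here, and opposite-strand genes overlap Notch1, Notch4 and Dll4. The genes, lists and tests were chosen with earlier results of these data known.

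Libraries 1, 2 and 3 held 6931, 7678 and 9932 barcodes and 58857545, 69231794 and 74571090 UMIs. A barcode needed 500 genes or more and no more than 15% mitochondrial UMIs. No doublet caller was run. A marker class also needed 3 times the UMIs of each other list, 0 Prox1 and 0 Ptprc UMIs, and fewer than 3 Flt1 UMIs. UMIs were summed per library and class and tested with edgeR 4.0.16 (filterByExpr, TMM, quasi-likelihood) in R 4.3.3. A library entered a comparison only with at least 20 cells on both sides. The library was a block, because its sums share the same pooled animals; deviations of LEC and BEC from their class means correlated at 0.46, 0.34 and -0.08. Benjamini-Hochberg adjustment left out genes that define or check classes. Standard errors are approximate, from the F statistic. Alternatives included DESeq2 1.42.0, its size factors, no filter, no block, leaving out each library, thinning to 3000 UMIs, equal cell numbers and other gates. All 10 members are named; other pathway genes where they passed with 1 sign in 3 of 3 libraries at 10 CPM or more, at most 4 in each direction. Positions are from GENCODE M21 (GRCm38).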

Additional observations from a re-analysis of the deposited data

How the results depend on the processing

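For 62 fold changes of members, 870 values under alternatives were computed: 810 kept direction and side of the threshold, 35 no longer passed, 14 newly passed and 11 changed sign. Those that changed sign had not passed. In LEC against BEC this was Hey1 (-0.47 with the stricter BEC gate, and -0.16 to 0.81 with 1 library left out). In LEC against mural cells they were Heyl (-0.18 at 1000 genes and 10% mitochondrial UMIs, which left out library 1, and -0.33 thinned) and Jag1 (-1.24 to 0.35 with 1 library left out). By Itih5 they were Dll4 (-0.0015 at 2 UMIs or more of Itih5, -0.0605 to 0.0509 with 1 library left out), Notch1 (0.0286 without RNA of other classes, 0.0526 thinned) and Notch2 (-0.0206 to 0.0681 with 1 library left out), and by Clca3a1 Hey1 (-0.0208 thinned).

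Of 100 counts of members called under alternatives, 91 stayed within 1.5 times. BEC against mural cells gave 3 when thinned, beside 804 of 2961 genes tested, and 1 to 8 with 1 library left out, beside 91 to 2608 genes. By Itih5, no replicate block gave 0. By Clca3a1, no replicate block gave 0, DESeq2 gave 3, 2 UMIs or more gave 3, thinning gave 3, and leaving out 1 library gave 2 to 5. All genes called in these Clca3a1 fits numbered 22, 1119, 1921, 1712 and 1081 to 2053, in the same order, around 2034. The cause was not tested. The block changed no call of a member between LEC and BEC.

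All genes called ranged from 1652 (without library 1) to 3492 around 2576 for LEC against BEC, from 91 (without library 2) to 2608 (without library 3) around 1473 for BEC against mural cells, and from 22 (no block) to 3099 around 2043 by Itih5 and to 3196 around 2034 by Clca3a1. Against mural cells they fell to 2591 of 5486 and against fibroblasts to 4062 of 6241 with equal cell numbers. The 206 BEC and 190 mural cells limit depth most: Notch2, Lfng and Heyl in BEC rest on 6, 7 and 18 UMIs.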
